A study of Drosophila melanogaster with 48 samples.

Results

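The glutathione S-transferases of the fly brain are described here through 35 protein-coding genes, chosen from the 17490 gene identifiers of the count table by a FlyBase symbol that starts with GstD, GstE, GstO, GstS, GstT or GstZ. The rule rests on gene names alone, and it was set with earlier results of these data known. The members were 11 GstD, 14 GstE, 3 GstO, 1 GstS, 4 GstT and 2 GstZ genes. RNA-seq was run on brains of Drosophila melanogaster, 20 brains per sample, after depletion of ribosomal RNA. There were 48 libraries, 3 in each of 16 groups set by genotype, sex and age. The genotypes were NAGLU KO, NAGLU W422X, NAGLU Y160C and WG2, each sampled as females and as males at week 0 and at week 3. The study asks how Naglu mutations, sex and age act in a fly model of mucopolysaccharidosis IIIB, a lysosomal storage disease in which heparan sulfate accumulates. KO is named as a knockout, W422X for a stop codon and Y160C for an amino acid change. WG2 was taken as the control because its label names no NAGLU change; its relation to the mutant lines was not stated. Each allele is represented by 1 genotype label, and nothing states that the replicate pools came from independent crosses, so p-values measure the spread between pools of brains.

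Glutathione S-transferases join the tripeptide glutathione to reactive, electrophilic molecules, which makes them more soluble and ready for export. Some also reduce peroxides or isomerise metabolites. In insects the Delta (GstD) and Epsilon (GstE) classes are enlarged and are known for resistance to insecticides, while Omega, Sigma, Theta and Zeta classes are shared with other animals. The transcription factor encoded by cnc, the fly counterpart of Nrf2, is known to drive GstD1 under oxidative stress. GstS1 and GstO1 are known as modifiers of damage in a fly model of Parkinson's disease.

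The labels were checked on Naglu itself, whose RNA stood at 24.7 ± 3.39 CPM in WG2, 2.10 ± 0.79 in KO, 6.66 ± 1.51 in W422X and 21.2 ± 2.63 in Y160C (CPM, a gene's count scaled to a common library size, mean ± SD, n = 12 each). Total counts ran from 8690199 to 55801160 per library. In 9 libraries, all of them week 3, genes that are otherwise scarce were raised together. The summed level of 3532 protein-coding genes with a median under 0.5 CPM was 2580 to 15441 CPM in these 9 and 292 to 2102 CPM in the other 39. They are called high-background libraries below, with a limit of 2500 CPM that was set after the values were seen. They comprised 2 of 3 KO females, 2 of 3 KO males, 2 of 3 Y160C females, 1 W422X female, 1 WG2 female and 1 Y160C male library. The tissue's defining markers were present: 7 neuron markers summed to between 7173 and 13953 CPM and 10 glia markers to between 1609 and 7061 CPM. In such bulk samples, fewer cells of a type and less RNA per cell cannot be told apart.

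The family was led by a few genes. Positions are from the BDGP6.54 annotation, found by gene identifier, and the deposited length of all 35 members equalled the exon length there. GstD1 (FBgn0001149, 3R:12367817-12369268, minus strand), a Delta enzyme known for the breakdown of DDT and used as a reporter of oxidative stress, had the highest length-scaled level. It reached 122.4 ± 28.03 CPM per kilobase over the 48 libraries, which was 30.7% of the summed length-scaled level of the family. GstD9 (FBgn0038020, 3R:12366163-12367564, minus strand) followed with 65.3 ± 32.2 and GstE12 (FBgn0027590, 2R:24766718-24768172, minus strand) with 31.8 ± 8.45 CPM per kilobase. These 3 genes made up 55.1% of the family.

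The next ranks were close to each other. GstE2 stood at 26.9 ± 8.01 CPM per kilobase and GstS1, the Sigma enzyme, known for conjugating the lipid aldehyde 4-hydroxynonenal, at 18.2 ± 4.44. GstD3 had 15.02 ± 4.36, GstE1 had 13.5 ± 5.53 and the Theta gene GstT1 had 12.6 ± 1.70 CPM per kilobase. From GstE12 to GstE2, and from GstS1 down to GstT1, each neighbour in this order differed by less than the SD of either gene over the libraries. The 8 highest genes held 76.7% of the family. The Zeta gene GstZ2, whose class isomerises maleylacetoacetate in tyrosine breakdown, and the Omega gene GstO2 had 11.6 ± 1.22 and 10.9 ± 1.31 CPM per kilobase.

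At the other end, 11 members had a mean under 1 CPM: GstD2, GstD4 to GstD8, GstE4, GstE5, GstE7, GstE10 and GstE14. GstE14, also called noppera-bo, is known for its part in ecdysteroid synthesis in the larval prothoracic gland. GstD6 was the lowest at 0.254 ± 0.351 CPM per kilobase. All 35 members passed the filter on low counts, although 9 had 0 reads in at least 1 library.

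By class, the summed length-scaled level of the GstD genes was 170.7 ± 31.4 CPM per kilobase in young (week 0) females and 193.3 ± 38.3 in old (week 3) females, against 194.2 ± 49.1 in young males and 282.8 ± 39.1 in old males (n = 12 each). The GstE genes summed to 94.3 ± 13.6, 106.9 ± 18.7, 106.8 ± 23.9 and 144.2 ± 15.5 in the same order. Week 3 males had the highest mean in both classes. The 4 GstT genes stood between 24.6 and 27.5 CPM per kilobase and the 2 GstZ genes between 13.8 and 15.9 over the 4 sets.

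**Figure D1:**
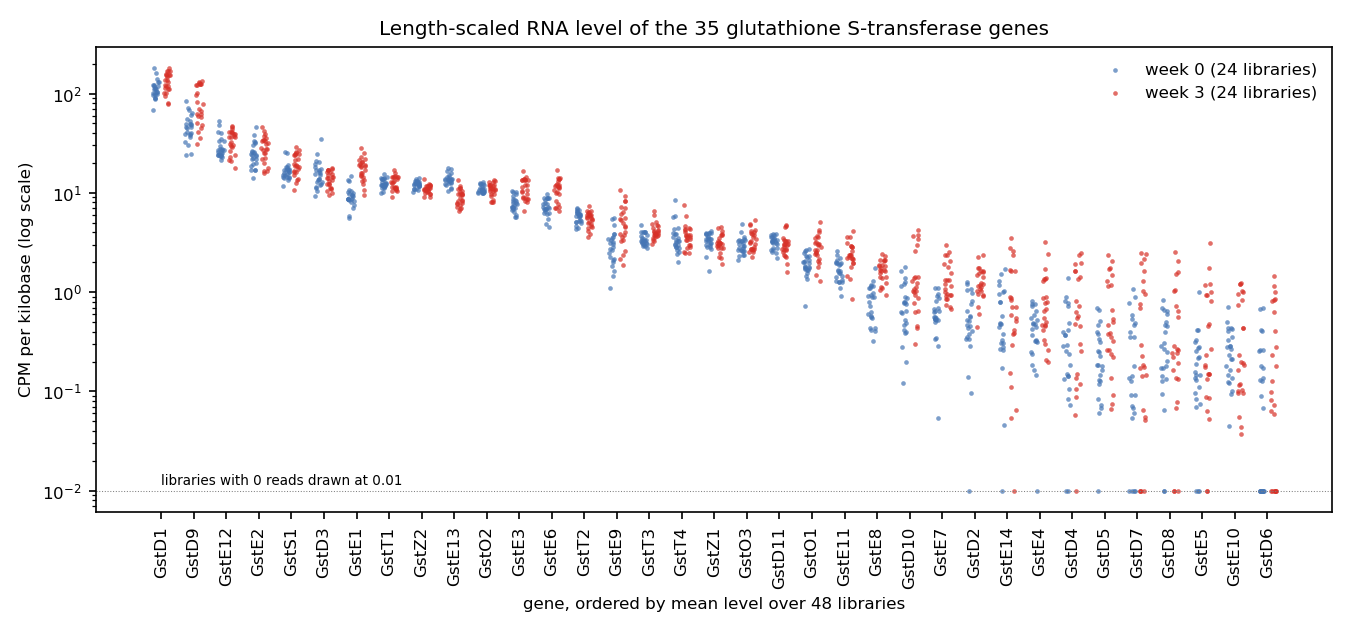
Length-scaled RNA level of each of the 35 genes (CPM per kilobase of deposited gene length, log axis) in the 24 week 0 and 24 week 3 libraries, 1 point per library, ordered by mean level. GstD1 leads at 122.4 and GstD6 is lowest at 0.254 on average; libraries with 0 reads are drawn at 0.01.

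The genes lie in groups. GstD1 to GstD11 fall between 12364776 and 12385624 on 3R, where GstD1, GstD9 and GstD10 are on the minus strand and the other 8 on the plus strand. GstE1 to GstE10 fall between 18396638 and 18409835 on 2R, with GstE10 on the minus strand and the other 9 on the plus strand. Neighbours on the same stretch differed widely in level. GstE1, GstE2, GstE3 and GstE6 had mean levels of 13.5, 26.9, 9.54 and 9.15 CPM per kilobase, while GstE4, GstE5 and GstE7 between and beside them had 0.665, 0.390 and 1.01. In the GstD stretch, GstD3 stood at 15.02 CPM per kilobase between GstD2 at 0.931 and GstD4 at 0.602. Reads that match several members equally well can be split or dropped by the counting, and their treatment is not known here, which leaves the counts of the closest copies uncertain.

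Because the strand setting was also not given, overlaps with genes on the opposite strand matter. Exons of GstE1 and GstE10 share 20 bases, those of GstE9 and imd share 40, those of GstE12 and CG3894 share 33, those of GstE13 and CG18659 share 6, those of GstO2 and se share 61, and those of GstT2 and CG12926 share 223. Reads from these stretches cannot be assigned to either gene.

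The first comparison asked whether the Naglu mutations changed the family. None of the 35 genes was called in KO, W422X or Y160C against WG2 (edgeR quasi-likelihood test, Benjamini-Hochberg adjusted p under 0.05 over 15807 genes). Among all genes, 0.747% were called for KO, 0.373% for W422X and 0.31% for Y160C, and at such rates few or no calls fall among 35 genes. An unadjusted p under 0.05 was found for 2 members in KO, 1 in W422X and 3 in Y160C. The median log2 fold change of the members was 0.01 in KO, 0.06 in W422X and 0.08 in Y160C, beside 0.02, 0.03 and 0.04 over all genes. These 3 comparisons share the WG2 libraries.

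GstD1, the most abundant member, had 67.3 CPM in the lowest, 106.6 in the median and 130.4 in the highest WG2 library. The same values were 58.02, 94.7 and 152.1 CPM in KO. W422X libraries gave 65.8, 109.8 and 143.9 CPM, and Y160C libraries gave 81.3, 96.6 and 143.4 CPM. The 4 genotypes overlapped over nearly their whole range. The log2 fold change of GstD1 was -0.06 (95% interval -0.33 to 0.20) in KO, 0.05 (-0.21 to 0.31) in W422X and -0.03 (-0.29 to 0.23) in Y160C.

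GstD9 ranged from 29.985 to 100.8 CPM in WG2 with a median of 44.8, and its medians were 38.4 in KO, 43.9 in W422X and 44.2 in Y160C. Its log2 fold changes were -0.11 (-0.41 to 0.19), -0.10 (-0.40 to 0.20) and -0.02 (-0.33 to 0.28). GstE1 had medians of 10.1 CPM in WG2, 10.6 in KO, 9.60 in W422X and 10.4 in Y160C. The groups overlapped for both genes.

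How tightly the data bound the mutant effect depended on the level of the gene. Of the 24 members with a mean of at least 1 CPM, 23 had a 95% interval within a doubling or halving (log2 of -1 to 1) in each mutant, and 20, 20 and 19 had one within 0.5 on the log2 scale in KO, W422X and Y160C. The exception to the wider bound was GstD10, whose interval reached 1.24 in KO, 1.29 in W422X and 1.56 in Y160C. Among the 11 scarce members, the interval in KO was -0.48 to 0.86 for GstE7 and -0.15 to 3.73 for GstD6. Intervals as wide as that of GstD6 leave differences of several-fold undetectable.

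**Figure D2:**
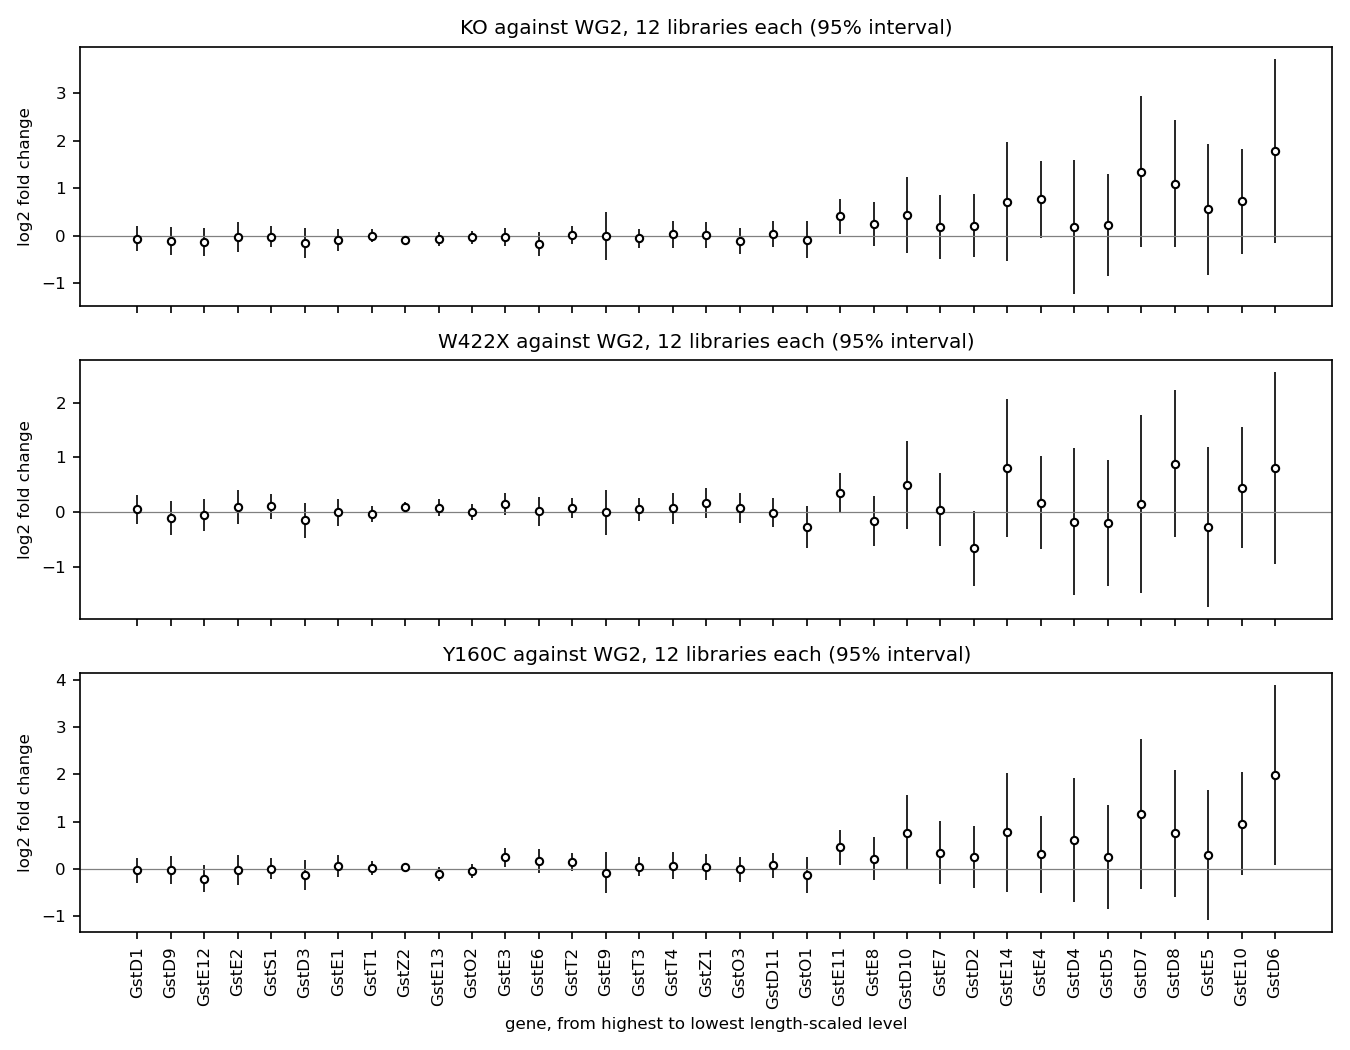
Log2 fold change of each of the 35 genes in KO, W422X and Y160C against WG2 (12 libraries each, mean over both sexes and ages) with 95% intervals, ordered from the highest to the lowest length-scaled level. No gene passed the adjusted threshold; intervals widen toward the scarce genes on the right.

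The mutants were also compared with WG2 at each age and in each sex. No member was called in any of these 12 comparisons. For KO, 0.133% of all genes were called at week 0, 1.29% at week 3, 0.772% in females and 0.158% in males. The corresponding shares were 0.171%, 0.183%, 0.177% and 0.202% for W422X and 0.24%, 0.146%, 0.177% and 0.158% for Y160C. Unadjusted p-values under 0.05 were found for at most 3 members in any of them. Nor was a member called in the interaction of a mutant with age, where 0.215%, 0% and 0.019% of all genes were called in KO, W422X and Y160C, or with sex, where 0.152%, 0% and 0.00633% were. Over these 6 interactions an unadjusted p under 0.05 was found for 0 to 2 members each.

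GstT4, a Theta gene on X, had the smallest unadjusted p among the members in these interactions. It stood at 2.98, 3.09 and 2.45 CPM in the Y160C week 0 males and at 9.14, 7.21 and 5.25 CPM in the Y160C week 3 males. In WG2 males it stood at 4.03, 3.67 and 10.5 CPM at week 0 and at 3.05, 3.41 and 3.68 CPM at week 3. The Y160C males did not overlap between ages, while 1 WG2 week 0 male library stood far above its fellows. How many of all genes separated in this way is not given here, and GstT4 was picked by its p-value. The Y160C by age interaction of GstT4 was 1.07 ± 0.28 on the log2 scale, with an unadjusted p of 0.000591 and an adjusted p of 0.370 by edgeR's quasi-likelihood test, so it failed the correction. Within Y160C males the age difference of GstT4 was 1.34 ± 0.28 with an adjusted p of 0.00573 (edgeR), where 1.76% of all genes were called.

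Between mutants, a single member was called, in KO against W422X, where 0.747% of all genes were called. GstZ2 ranged from 21.04 to 30.1 CPM in KO with a median of 25.03, and from 25.7 to 32.3 CPM in W422X with a median of 28.5. The ranges overlapped. The log2 difference was -0.19 ± 0.05 with an adjusted p of 0.0257 (edgeR), WG2 lay between them at a median of 26.3 CPM, and the call was lost in 7 of 11 other settings and in 32 of 48 fits that left out 1 library. No member was called in KO against Y160C, where 0.797% of all genes were called, or in W422X against Y160C, where 0.443% were; 3 and 2 members had an unadjusted p under 0.05 (edgeR).

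Age gave the most calls in the family. Comparing week 3 with week 0 over the 4 genotypes and both sexes, 17 of the 35 members rose and 2 fell (edgeR, adjusted p under 0.05). Those are 48.6% and 5.71% of the members, beside 26.4% and 18.1% of all genes tested. The median log2 fold change of the 35 members was 0.54, against 0.16 over all genes. Of the called members, 13 had a higher and 1 had a lower mean in each of the 8 genotype and sex strata; 7.41% and 11.7% of all genes met these 2 rules. Without the 9 high-background libraries, 13 members rose and 2 fell, beside 20% and 18.7% of all genes. The members' median was then 0.15 and that of all genes -0.07.

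A core of 7 genes was called in the same direction with all 48 libraries, under 10 other settings and in 48 fits that each left out 1 library. GstD9, GstE1, GstE3, GstE6, GstE8 and GstE9 were higher at week 3 and GstE13 was lower. They make up 17.1% and 2.86% of the members, and 4.08% and 2.9% of all genes passed the same requirement in these directions.

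GstE1 (FBgn0034335, 2R:18398393-18399223, plus strand), an Epsilon enzyme, was higher at week 3 in each stratum. In WG2 females it stood at 7.98, 5.81 and 8.06 CPM at week 0 and at 11.2, 8.90 and 13.3 CPM at week 3. In WG2 males it stood at 11.3, 8.40 and 8.58 CPM and then at 16.3, 17.7 and 15.3 CPM. All 3 week 3 libraries lay above all 3 week 0 libraries in both sexes.

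In the mutants the ages were also apart for GstE1. KO females had 7.27, 7.20 and 4.89 CPM at week 0 and 13.3, 10.2 and 10.995 CPM at week 3, and KO males had 7.35, 12.2 and 7.12 and then 15.997, 14.2 and 15.4 CPM. W422X females had 7.20, 6.92 and 7.17 and then 7.85, 12.3 and 16.99 CPM, and Y160C males went from 7.70, 7.03 and 6.79 to 20.8, 23.7 and 15.8 CPM. In all 8 genotype and sex strata the ages did not overlap, a pattern that 0.342% of all genes shared in this direction. The log2 fold change over the study was 0.91 ± 0.08 (1.88-fold, adjusted p 3.64e-11, edgeR), and it was 0.71 ± 0.17 in WG2, 0.81 ± 0.17 in KO, 0.996 ± 0.17 in W422X and 1.14 ± 0.17 in Y160C, each called.

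GstD9, the second most abundant member, rose from a range of 18.8 to 66.3 CPM with a median of 36.1 at week 0 to a range of 24.2 to 104.3 CPM with a median of 58.0 at week 3 (n = 24 each). The 2 ages overlapped. The log2 fold change was 0.73 ± 0.11 (adjusted p 8.05e-07, edgeR). By genotype it was called in WG2 (0.70 ± 0.21), W422X (0.98 ± 0.21) and Y160C (0.82 ± 0.21), and stood at 0.42 ± 0.21 in KO with an adjusted p of 0.130 (edgeR). The difference between KO and WG2 in the age effect was not called, as given above.

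GstE13 (FBgn0033381, 2R:9122125-9123309, plus strand), an Epsilon gene that lies apart from the others on 2R, went the opposite way. WG2 females had 13.2, 14.1 and 13.005 CPM at week 0 and 8.92, 8.06 and 9.34 CPM at week 3, and WG2 males had 14.2, 19.1 and 13.5 and then 12.3, 10.2 and 11.1 CPM. All 3 week 3 libraries lay below all 3 week 0 libraries in 7 of the 8 strata, which 1.81% of all genes did in at least 7. W422X females were the exception, with 12.8, 14.5 and 11.04 CPM at week 0 and 7.57, 10.1 and 11.8 CPM at week 3. The log2 fold change fell by 0.59 (SE 0.05, adjusted p 2.14e-11, edgeR) over the study and was called in each genotype, between -0.43 ± 0.10 in W422X and -0.70 ± 0.10 in KO.

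**Figure D3:**
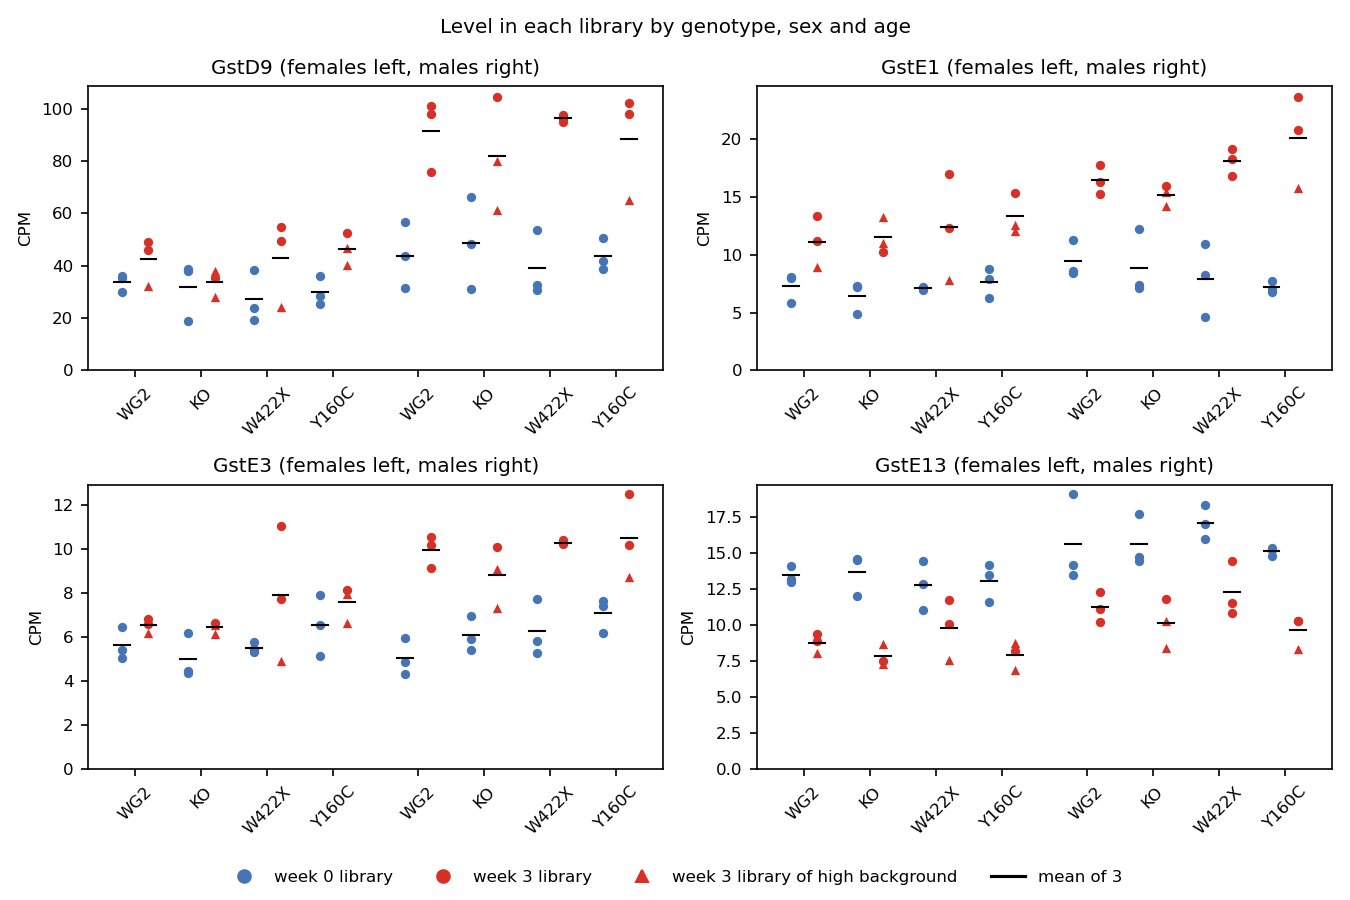
Level in each library (CPM) of GstD9, GstE1, GstE3 and GstE13 by genotype, sex and age; points are libraries, triangles are high-background libraries and bars are means of 3. GstE1 is higher at week 3 in all 8 strata, GstE13 is lower in mean in all 8, and week 3 males are highest for GstD9 with a median of 96.9 CPM.

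The other 4 genes of the core are Epsilon genes of the 2R group. GstE3 rose from a median of 5.80 to 8.45 CPM (log2 0.51 ± 0.07) and GstE6 from 5.36 to 8.56 CPM (0.60 ± 0.09). GstE8 rose from 0.949 to 1.86 CPM (1.04 ± 0.16) and GstE9 from 2.33 to 3.78 CPM (0.76 ± 0.15). The mean at week 3 was higher in 8 of 8 strata for GstE3, GstE6 and GstE8 and in 7 of 8 for GstE9. GstE9 differed by -0.07 ± 0.29 between ages in KO and by 0.90 ± 0.30 in WG2, and the difference between these had an unadjusted p of 0.0256 and an adjusted p of 0.788 (edgeR).

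Other called members had smaller differences or lost the call in some fits. GstS1 rose by 0.22 ± 0.08 on the log2 scale, from a median of 36.7 to 42.8 CPM, and GstT3, a Theta gene on X, by 0.26 ± 0.07, from 4.56 to 5.38 CPM. GstS1 lost its call in 17 and GstT3 in 14 of the 48 fits without 1 library, while both kept it without the 9 high-background libraries. With the fat body markers as a covariate the adjusted p was 0.0521 for GstS1 and 0.150 for GstT3 (edgeR). GstZ2 fell by 0.16 (SE 0.03), from a median of 28.7 to 25.4 CPM, and lost its call without those 9. GstD2 rose by 1.29 ± 0.24, from a median of 0.360 to 0.882 CPM, and GstE7 by 1.13 ± 0.23, from 0.433 to 0.905 CPM; without the 9 libraries both were still called, at 1.11 ± 0.24 and 0.70 ± 0.24. GstD2 lost its call with neuron and glia markers as covariates (0.56 ± 0.33, adjusted p 0.141, edgeR). GstE7 lost its call with the fat body markers (0.56 ± 0.24, adjusted p 0.0935, edgeR) and stood at -0.19 ± 0.31 with neuron and glia markers (adjusted p 0.623, edgeR).

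The scarce members were raised in the high-background libraries, which are themselves defined by other scarce genes. With a limit set after the values were seen, such a rise is close to built in. No share of comparable scarce genes is given, so the rise is not shown to be a trait of the family. The summed level of the 11 members under 1 CPM was 7.64 to 19.6 CPM in the 9 high-background libraries and 1.13 to 7.03 CPM in the other 39, without overlap. Without those 9 libraries, GstD4, GstD5, GstD10, GstE4, GstE5, GstE11 and GstO1 lost their calls. GstD5 went from 1.67 ± 0.38 to 0.15 ± 0.37 on the log2 scale and GstE4 from 1.02 ± 0.28 to 0.55 ± 0.31. GstD4 and GstE5 changed sign, from 1.17 ± 0.46 to -0.60 and from 1.32 ± 0.49 to -0.62. GstE10, not called with all libraries at 0.67 ± 0.38, was called lower without them at -1.08 ± 0.35 (adjusted p 0.0141, edgeR).

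**Figure D4:**
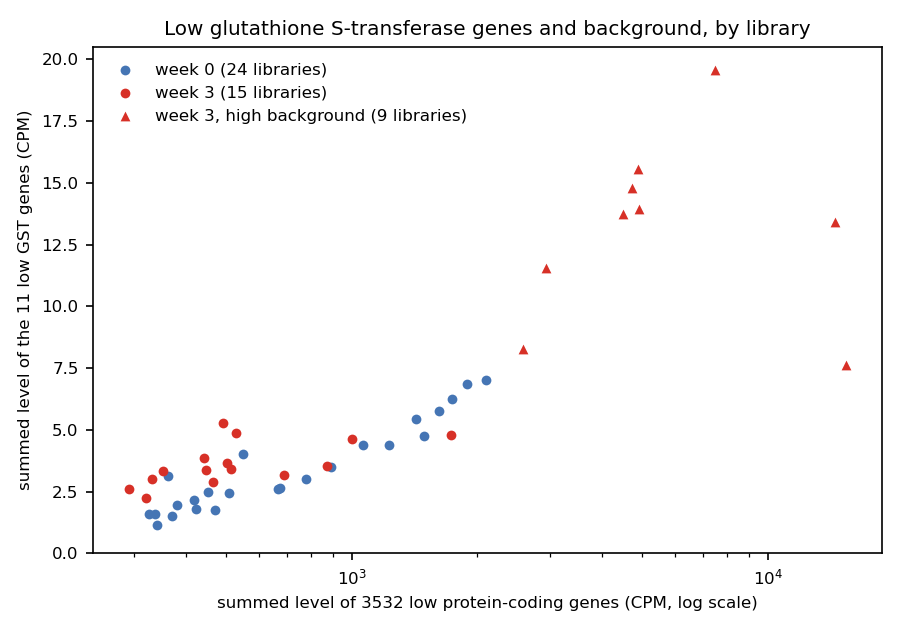
Summed level of the 11 members with a mean under 1 CPM (CPM) against the summed level of 3532 scarce protein-coding genes (CPM, log axis), 1 point per library. The 9 high-background week 3 libraries lie between 7.64 and 19.6 CPM and the other 39 between 1.13 and 7.03 CPM.

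Some abundant members had a larger age difference when the same libraries were left out. GstD1 had a median of 93.1 CPM at week 0 and 113.1 CPM at week 3 over all libraries, with a log2 difference of 0.21 ± 0.09 and an adjusted p of 0.0545 (edgeR). More of the high-background libraries were female than male, so leaving them out changes the mix of sexes behind a median. Over all week 3 libraries the median of GstD1 was 98.3 CPM in females and 128.3 CPM in males. Without the high-background libraries its week 3 median was 128.4 CPM and the log2 difference 0.39 ± 0.10 with an adjusted p of 0.00214. GstE12 (0.33 ± 0.11) and GstO2 (0.11 ± 0.04) were called higher in that comparison too, and GstE1 (1.02 ± 0.09) and GstD9 (0.91 ± 0.12) stood above their values over all libraries. Other members over 1 CPM passed the test in neither comparison, among them GstE2, which differed by 0.17 ± 0.11, GstD3 by -0.20 ± 0.11, GstT1 by 0.01 ± 0.05, GstO3 by 0.19 ± 0.10 and GstZ1 by -0.07 ± 0.10 with all libraries.

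**Figure D5:**
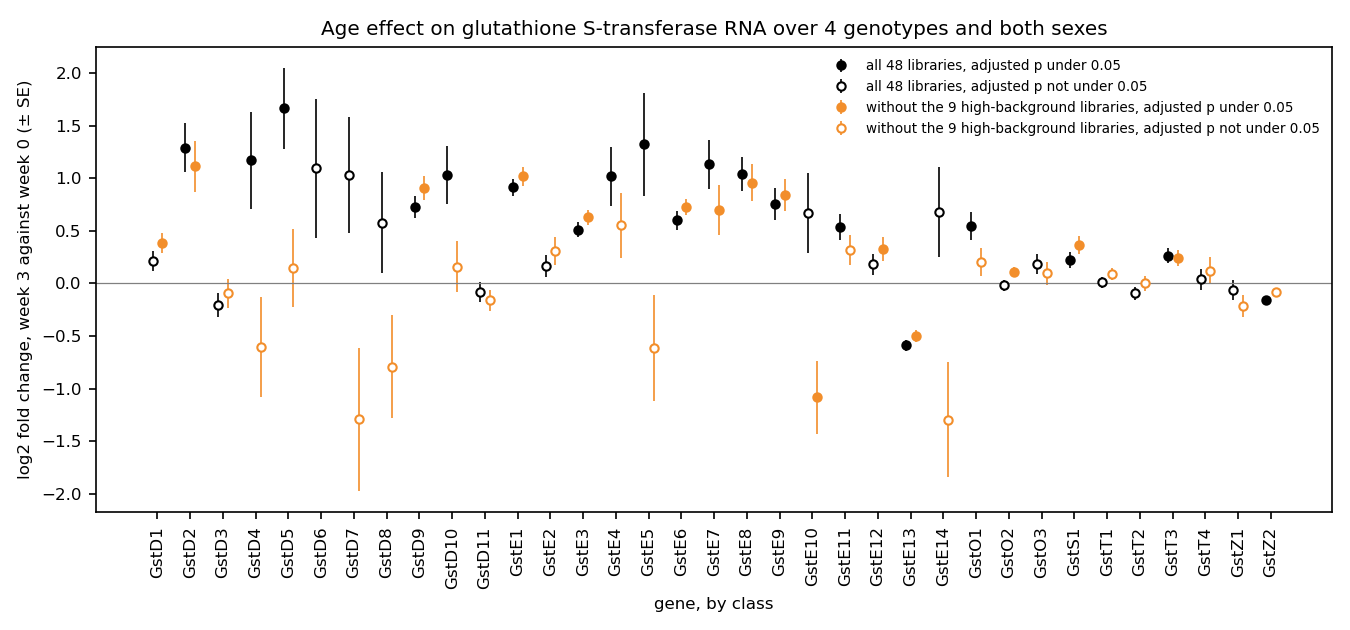
Log2 fold change from week 0 to week 3 with its SE for each member over all 48 libraries (black) and without the 9 high-background libraries (orange); filled points have an adjusted p under 0.05. GstE1, GstD9, GstE3, GstE6, GstE8, GstE9 and GstE13 are filled in both, while GstD4 and GstE5 change sign; GstD6 without the 9 libraries is not drawn because its counts were near 0.

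Cell type markers moved with age beside these genes. All 7 neuron markers fell, and their median summed level was 12194 CPM at week 0 and 9500 CPM at week 3, with ranges of 9381 to 13953 and 7173 to 10845. Of 10 glia markers 1 rose and 5 fell, with median sums of 3421 and 3046 CPM. Of 17 fat body markers 13 rose and 1 fell, with sums of 1588 to 6665 CPM at week 0 (median 2323) and 2684 to 5368 at week 3 (median 3937). Of 10 haemocyte markers 5 rose and 2 fell, with sums of 350 to 891 CPM at week 0 and 299.8 to 7853 CPM at week 3, and of 11 muscle markers 4 rose. No marker of these lists was at 0 in every library of an age. Their part in the age effect was not tested beyond the fits that follow. With the fat body markers as a covariate 10 members were called with age, and 7 of them higher; with neuron and glia markers as covariates 9 were called higher and 10 lower. The 7 core genes kept their call and direction in both. Shares of all genes called under these covariates are not given here, so the member counts cannot be set against them.

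Within each genotype the age comparison called fewer members. It called 6 higher and 1 lower in WG2 (8.72% of all genes called in either direction), 6 higher and 2 lower in KO (17.9%), 7 higher and 1 lower in W422X (7.24%) and 6 higher and 1 lower in Y160C (7.55%). By sex, 20 members rose and 3 fell in females, where 62.4% of all genes were called, and 10 rose and 1 fell in males, where 18.6% were. Of the high-background libraries 6 were female and 3 male.

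Sex was compared over the 4 genotypes and both ages. In males 6 of the 35 members were higher than in females and 0 lower, which is 17.1% of the members beside 10.1% of all genes called in either direction and 6.04% called higher. At week 0 alone 2 members were called, both higher in males (4.53% of all genes called), and at week 3 alone 11 were higher and 1 lower (23.4%). The 6 genes were GstD9, GstE1, GstE2, GstE3, GstE13 and GstS1. An unadjusted p under 0.05 was found for 12 members. The median log2 difference of the members was 0.13 and that of all genes -0.03.

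Of these 6, GstD9 differed most. At week 0 the lowest, median and highest levels were 18.8, 32.6 and 38.8 CPM in females and 30.6, 42.6 and 66.3 CPM in males (n = 12 each). At week 3 they were 24.2, 43.1 and 54.6 CPM in females and 61.3, 96.9 and 104.3 CPM in males. The sexes overlapped at week 0 and did not overlap at week 3. At week 3, 3697 of 15807 genes were called between the sexes, and how many separated fully is not given here. The log2 difference was 0.82 ± 0.11 (adjusted p 3.90e-07, edgeR), and GstD9 was the one member called under 10 other settings and in 48 fits that left out 1 library, which 1.07% of all genes were in this direction.

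Male means of GstD9 were higher in 8 of 8 genotype and age strata, with no overlap of the 3 against 3 libraries in 5. The share of all genes with this pattern is not given here, so it is not shown to be unusual. By genotype the sex difference was called in KO (0.95 ± 0.21) and W422X (0.85 ± 0.21), where 2.13% and 1.57% of all genes were called. It was 0.74 ± 0.21 in WG2 and 0.74 ± 0.21 in Y160C, with adjusted p-values of 0.0947 and 0.0847 (edgeR), where 0.93% and 1.25% were called.

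The other 5 genes had smaller differences. GstE2 was higher in males by 0.44 ± 0.11, GstE1 by 0.38 ± 0.08, GstS1 by 0.35 ± 0.08, GstE13 by 0.30 ± 0.05 and GstE3 by 0.29 ± 0.07 on the log2 scale. Male means of GstE2, GstE13 and GstS1 were higher in 8 of 8 strata and those of GstE1 and GstE3 in 7 of 8. Of 10 haemocyte markers 7 were lower in males. Glia markers were also higher in males, with 5 of 10 called, and their median sums in females and males were 3168 and 3852 CPM at week 0 and 2468 and 3449 CPM at week 3. With neuron and glia markers as covariates GstE1, GstE2, GstE3 and GstS1 lost the call, and with fat body markers GstE13 did as well, a list that holds the female yolk protein genes. Without the high-background libraries 8 members were called, all higher in males, beside 10.8% of all genes.

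The age effect was then compared between the sexes. Over all libraries 4 members were called in the age by sex interaction, where 23.4% of all genes were. GstD9 rose by 1.04 ± 0.15 in males and 0.43 ± 0.15 in females, a difference of 0.61 ± 0.21 (adjusted p 0.0415, edgeR). GstE3 rose by 0.70 ± 0.10 in males and 0.32 ± 0.10 in females, a difference of 0.37 ± 0.14 (adjusted p 0.0477, edgeR). GstT1 differed by 0.28 ± 0.10 and GstD6, with 0 to 22 reads per library, by -3.46 ± 1.28. Without the 9 high-background libraries none of the 4 was called and 0.0927% of all genes were, and without KO female week 3 replicates 1 and 3 alone the count of members was also 0.

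Genes of the same chemistry were compared between ages as well, from lists chosen for their function. Of 8 genes listed under glutathione synthesis and supply, 1 rose and 3 fell with age. For this and the lists that follow, the shares of all genes are 26.4% higher and 18.1% lower with age, and 20% and 18.7% without the 9 high-background libraries, so counts near these shares say nothing particular about a list. Cth, the cystathionine gamma-lyase that makes cysteine, rose by 0.27 ± 0.05 on the log2 scale. Ggt-1, a gamma-glutamyl transferase, fell by 0.68 (SE 0.13). Sms, a spermine synthase that is counted only through its place in the list, fell by 0.27 (SE 0.05). Without the 9 high-background libraries the counts were 5 higher and 2 lower.

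Of 19 genes of peroxide and superoxide removal, 5 rose and 6 fell. Irc, an immune-regulated catalase, rose by 0.87 ± 0.09, from 37.6 ± 7.26 to 70.0 ± 19.3 CPM (n = 24 each). Prx4, a peroxiredoxin of the endoplasmic reticulum, rose by 0.49 ± 0.06, and Sod2, the mitochondrial superoxide dismutase, fell by 0.46 (SE 0.07). Without the high-background libraries 5 rose and 1 fell. Of 43 tested cytochrome P450 genes, whose enzymes oxidise foreign compounds, 22 rose and 2 fell, with a median log2 fold change of 0.37. Cyp6a13 rose by 0.63 ± 0.06, Cyp6a22 by 0.95 ± 0.15 and Cyp6w1 by 0.46 ± 0.08. Of 42 tested without the high-background libraries, 14 rose and 4 fell.

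Of 6 genes listed as regulators 1 rose and 2 fell. The gene that rose was cnc itself, by 0.16 ± 0.03, from 159.97 ± 12.7 to 178.6 ± 14.2 CPM. Cul3, a ubiquitin ligase scaffold, fell by 0.11 (SE 0.04). Fs(2)Ket, an importin that is counted only through its place in the list, fell by 0.28 (SE 0.05). Of 5 genes of NADPH supply 0 rose and 2 fell, the malic enzymes Men-b by 0.49 (SE 0.05) and Men by 0.19 (SE 0.05). Of 10 genes listed as export transporters 2 rose and 2 fell. Sur, the sulfonylurea receptor and not a known exporter of conjugates, rose by 0.80 ± 0.09. Mdr65, a transporter of the blood-brain barrier, fell by 0.41 (SE 0.08). Of 4 tested genes of phenylalanine and tyrosine breakdown, which holds the step of GstZ, 3 rose. Faa rose by 1.26 ± 0.26, hgo by 1.41 ± 0.34 and Hn by 0.59 ± 0.15, and 0 were called without the high-background libraries. Among 5 other glutathione transferases outside the naming rule, Mgstl rose by 0.36 ± 0.08 and gfzf by 0.14 ± 0.05, and of 6 genes of aldehyde removal 1 rose, Fdh by 0.15 ± 0.05.

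Between males and females, 5 of the 19 genes of peroxide and superoxide removal were higher in males and 0 lower. Also higher were 2 of 5 genes of NADPH supply and 1 of 8 of glutathione supply, with 0 lower. Of all genes 6.04% were called higher and 4.1% lower. Sod2 was higher by 0.35 on the log2 scale, Idh, an NADP-dependent isocitrate dehydrogenase, by 0.31 and Cth by 0.19. Of the P450 genes 4 were higher and 3 lower in males, and of the transporters 0 were higher and 1, Mdr65, was lower, at -0.53.

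Against WG2, 1 gene of these lists was called in a mutant: Prx6c, a peroxiredoxin, in W422X against WG2, where 0.373% of all genes were called, with a log2 fold change of -1.55 ± 0.24 (adjusted p 6.73e-05, edgeR).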

How the data were processed

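A table of unnormalised read counts, with gene lengths, was deposited for the 48 brain libraries. Per the submitters' processing notes the tools included Subread. Which build, annotation, aligner, strand setting and handling of multiply matching reads the authors chose is not given in the sources used here. Of 17490 identifiers, 17288 matched a symbol; deposited and BDGP6.54 (Ensembl release 115) exon lengths were equal for 98.6% of these. No sequences are printed.

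Tests used edgeR 4.0.16 (R 4.3.3, limma 3.58.1): filterByExpr (minimum count 10, total 15; 15807 genes tested, 1683 below), TMM scaling, 1 mean per group over 16 groups, robust quasi-likelihood fit (32 residual degrees of freedom, no replicate block), contrasts averaged over the other factors, Benjamini-Hochberg adjustment over all genes, threshold 0.05. Levels are CPM on TMM-scaled library sizes, mean ± SD, and per kilobase for comparisons between genes. Log2 fold changes are ± SE (log2 fold change over the root of F). Intervals are 95%, from the same fit.

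Members and lists (16 lists, 206 entries, 187 matched) were chosen with earlier results of these data known. Given with values were members called over all libraries, the 8 highest by length-scaled level, up to 3 called genes per other list with the smallest p, and Naglu; members called only within a sex or genotype are counted, and others (GstT4 among mutant comparisons, GstE10, GstD6, GstO2) were named after their values were seen. Counts were simulated with changes planted only in genes above a limit on the mean count. For KO against WG2, 15543 genes were tested, and 76 of 100 changed by log2 1 and 98 of 100 by log2 2 were recovered. For age, 88 and 98 of 100 were recovered among 15522. Among unchanged genes 12 and 16 were called. These rates do not cover the scarcest members, and no high-background libraries were simulated. Same-numbered replicates, by title and by column name, were checked for pairing and did not deviate together throughout. Replicate pairs differed by more than sampling noise (chi-square per degree of freedom 4.01 to 251.6), so each library counts once. The largest values were those of KO female week 3 replicate 2 (208.5 and 251.6) and KO male week 0 replicate 2 (134.8 and 132.4) against their fellows. Alternatives were DESeq2 1.42.0, other size factors, no filter, a replicate block, marker covariates and left-out libraries; those on background, on neuron and glia markers and on column-name numbers were chosen after seeing the data.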

Additional observations from a re-analysis of the deposited data

Results flagged for a closer look

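For 4 members the age effect differed between the sexes by the interaction test over all libraries (edgeR's quasi-likelihood test, males minus females, log2 scale). They are 11.4% of the members, while the same test called 3693 of 15807 genes. The count is therefore not read as a result about the family. GstD9 differed by 0.61 with an adjusted p of 0.0415, GstE3 by 0.37 with an adjusted p of 0.0477 and GstT1 by 0.28 with an adjusted p of 0.0448. GstD6 differed by -3.46 with an adjusted p of 0.0481 and rests on 0 to 22 reads per library. Over the other settings, the adjusted p reached 0.661 for GstD9, 0.713 for GstE3, 0.761 for GstT1 and close to 1 for GstD6. Over these settings and the 48 fits without 1 library, GstD9 ranged from 0.40 to 0.68, GstE3 from 0.19 to 0.41 and GstT1 from 0.11 to 0.31 on the log2 scale. GstD9 lost the call in 37, GstE3 in 45, GstT1 in 42 and GstD6 in 33 of those 48 fits.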

How the results depend on the processing

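Leaving out 1 library at a time gave 17 to 23 members called with age, 6 to 9 with sex and 0 to 9 in the age by sex interaction. It gave 0 to 4 in KO against W422X and 0 in each mutant against WG2. Over all genes the same fits called 5327 to 8616 with age and 1428 to 2338 with sex. They called 31 to 6470 genes in the age by sex interaction and 91 to 4460 in KO against W422X. The counts of members thus moved beside wide swings over all genes. Counts of members called with age were 19 over all libraries, 22 with DESeq2, 16 without KO female week 3 replicates 1 and 3, 15 without the high-background libraries and 10 with the fat body covariate. With sex, 6 became 15 with the fat body and 10 with the background covariate, and Y160C against WG2 went from 0 to 1 with neuron and glia covariates. Shares of all genes called with DESeq2 and with these covariates are not given here, so the counts describe the settings and not the family. The age by sex count of 4 became 0 with RLE size factors, without the filter, with the fat body, background or neuron and glia covariates, and without the 2 KO or the 9 high-background libraries. It was 6 with DESeq2, 1 with the replicate block by title number and 0 with a block by the numbers in the deposited column names. The first block otherwise changed no count of members among the mutant, age and sex comparisons. Replicate numbers did not pair the samples: correlations of 60 same-number pairs ran from -0.75 to 0.76, with 19 over 0.1. The column names carry other numbers in 21 libraries; over 44 pairs by these, correlations ran from -0.75 to 0.76, 15 were over 0.1, and the block gave 18 members called with age and 7 with sex. With DESeq2 the share of higher genes among all age calls was 69.6% against 59.3%.

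Some age differences (log2) changed sign. With neuron and glia covariates they were 0.019 for GstZ2, -2.52 for GstD4, -0.997 for GstD5, -3.10 for GstD7, -2.67 for GstD8, -1.04 for GstD10, -2.19 for GstE5, -0.19 for GstE7, -2.28 for GstE10, -0.18 for GstE11 and -2.51 for GstE14. With the fat body covariate they were -0.45 for GstD4, -0.041 for GstD10, -0.76 for GstE5, -1.05 for GstE10 and -1.08 for GstE14. Without the high-background libraries they were -0.60 for GstD4, -0.62 for GstE5, -1.08 for GstE10 and 0.11 for GstO2, and with the background covariate -0.028 for GstD4. Sex differences that changed sign were -0.21 for GstD3 with neuron and glia covariates, and 2.86 for GstD4, 2.49 for GstD8, 3.06 for GstE5, 1.03 for GstE7 and 2.48 for GstE10 with the fat body covariate. The cause was not tested. All high-background libraries are week 3, so background and age cannot be fully told apart, which touches scarce members and also GstD10, GstE11, GstO1 and GstZ2, whose means exceed 1 CPM and whose age calls were lost without those libraries.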
